A study of Mus musculus with 6 samples.

Results

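Dectin-1 and the activating C-type lectins of myeloid cells were examined in lumbar microglia of SOD1 G93A mice, a model of amyotrophic lateral sclerosis (ALS), and of WT littermates. The group was defined by gene name, as *Clec7a*, *Clec4e*, *Clec4n*, *Clec5a*, *Clec12a*, *Clec2d* and *Card9*. Every probe set that the annotation of the array assigned to one of these symbols alone was used. This gave 7 probe sets for 5 of the 7 genes, among 45037 probe sets and 18193 gene symbols on the array. No probe set used here carried the symbol *Clec12a* or *Card9* alone, and these genes were not analysed here.

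SOD1 G93A males carried many copies of a human SOD1 transgene with an ALS mutation on a B6SJL background, and WT males were their littermates without it. All mice were 90 days old, an early symptomatic age, and 3 arrays were hybridised per genotype, each with RNA of cells pooled from several mice. The cells were sorted from dissociated lumbar cord on CD11b, an integrin chain that neutrophils, monocytes and other macrophages also carry. The spread between arrays is therefore that between pools.

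C-type lectin receptors bind sugars, lipids and proteins of microbes and of damaged cells. Dectin-1, the product of *Clec7a*, recognises beta-glucan and signals through a tyrosine motif in its own tail, whereas Mincle (*Clec4e*) and Dectin-2 (*Clec4n*) pair with the Fc receptor gamma chain, and MDL-1 (*Clec5a*) pairs with the adaptors DAP12 and DAP10. These signals run through the kinase SYK to CARD9, BCL10 and MALT1, and from there to NF-kappaB. Not every gene of the group is an activating receptor: the product of *Clec12a* carries an inhibitory motif, and that of *Clec2d* is a ligand of inhibitory NKR-P1 receptors in mouse. In microglia, *Clec7a* is widely used as a marker of reactive cells.

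The arrays separated by genotype for *Clec7a* and for 1 of the 2 probe sets of *Clec4e*, in opposite directions. Of all probe sets, 13.4% separated in this way with SOD1 G93A higher and 11.3% with it lower. The RefSeq sequences around the transcription starts of *Clec7a* and *Clec4e* run from 250 bases before to 50 bases after the start. They are given here because both genes lie on chromosome 6 and their signals moved apart. Capitals mark each AGGAA on either strand, the core bound by PU.1 and other ETS factors. The *Clec7a* window is chr6:129472730-129473029 and the *Clec4e* window chr6:123289822-123290121, both on the minus strand of GRCm38.p6.
Clec7a: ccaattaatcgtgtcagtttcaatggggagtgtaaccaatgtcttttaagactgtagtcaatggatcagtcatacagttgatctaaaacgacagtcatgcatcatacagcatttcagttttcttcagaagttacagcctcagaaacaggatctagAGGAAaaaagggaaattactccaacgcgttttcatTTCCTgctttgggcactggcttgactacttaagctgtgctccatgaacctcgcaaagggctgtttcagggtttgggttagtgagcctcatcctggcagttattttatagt
Clec4e: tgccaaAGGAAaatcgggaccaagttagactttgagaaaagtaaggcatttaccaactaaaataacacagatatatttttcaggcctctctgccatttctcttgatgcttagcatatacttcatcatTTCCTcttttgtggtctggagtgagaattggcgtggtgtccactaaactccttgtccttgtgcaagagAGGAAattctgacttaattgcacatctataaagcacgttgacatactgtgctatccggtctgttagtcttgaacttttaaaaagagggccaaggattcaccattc
The *Clec7a* window held 2 matches of AGGAA and the *Clec4e* window held 3. Of 27018 promoter windows of this length, 66.8% held at least 1 such match and 13.1% held 3 or more. TTGCNNAA, a C/EBP type of motif, was found 1 time in the *Clec4e* window, at position -66 from the start, and 0 times in that of *Clec7a*, and 10.8% of all windows held it. A motif of the NF-kappaB type, GGGA and CC with 4 free bases between them, was found in neither and in 20.5% of all windows. Both strands were searched for each motif. Such matches describe the letters of these windows only. RefSeq windows were found for 6 of the 7 genes, all but *Clec4n*.

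*Clec7a* was the only member that rose. On the log2 scale its probe set, 1420699_at, read 11.56, 11.86 and 12.26 in SOD1 G93A arrays, against 10.60, 10.55 and 10.67 in WT arrays. All 3 SOD1 G93A arrays lay above all 3 WT arrays, and the SOD1 G93A arrays were more widely spread than the WT arrays. The means were 11.89 ± 0.35 in SOD1 G93A and 10.61 ± 0.06 in WT arrays (SD, n = 3 each). The log2 fold change was 1.28, a 2.43-fold rise (standard error 0.17, 95% confidence interval 0.90 to 1.66, adjusted p = 0.00626 from limma over all probe sets). The call held when any 1 array was left out, with a limma adjusted p between 0.00252 and 0.0363. It was lost in the methods' t-test after Benjamini-Hochberg adjustment (adjusted p = 0.332), which left 0 probe sets of the whole array, although 5697 had an unadjusted p under 0.05 in that test and 8767 in limma. It was also lost, with the log2 fold change at 0.85 (limma, adjusted p = 0.0803), when the 3' minus 5' signal of *Gapdh* was a covariate. That signal, which is larger where RNA copies are shorter, was 4.12 ± 0.59 in SOD1 G93A arrays and 4.89 ± 0.11 in WT arrays (SD, n = 3 each). Its part in the result cannot be told apart from that of genotype with so few arrays and was not tested further.

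*Clec4e*, whose product Mincle binds a ribonucleoprotein of dying cells and microbial glycolipids, was lower in the CD11b-sorted pools of SOD1 G93A mice. Only 1 of its 2 probe sets passed. Of its 2 probe sets, the weaker, 1420331_at, read 7.39, 7.84 and 7.97 in SOD1 G93A arrays, against 8.22, 9.002 and 9.18 in WT arrays. The genotypes did not overlap, although the array numbered 1 was the lowest of both. The log2 fold change was -1.07, a signal 2.10-fold lower (standard error 0.25, 95% confidence interval -1.64 to -0.51), and it passed narrowly (limma, adjusted p = 0.0477). The stronger probe set, 1420330_at, read 8.72, 9.49 and 9.69 in SOD1 G93A arrays, against 9.52, 10.52 and 10.69 in WT arrays. Here SOD1 G93A array 3 lay above WT array 1, so the genotypes overlapped. Its log2 fold change of -0.94 (95% confidence interval -1.69 to -0.20) did not pass (limma, adjusted p = 0.152). In whole sorted pools, fewer cells of a type and less RNA per cell cannot be told apart.

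The call of *Clec4e* depended on single arrays. For 1420331_at it was lost without SOD1 G93A replicate 1 (adjusted p = 0.0945), 2 (0.123) or 3 (0.1001) and without WT replicate 2 (0.147) or 3 (0.157), with log2 fold changes between -1.19 and -0.88 in these limma fits. It was also lost with trend and robust settings (limma, adjusted p = 0.0512), with arrays centred on their median (0.0526), with the *Gapdh* covariate (0.103) and in the methods' t-test (0.392). With that covariate the estimates were larger in size, at -1.50 for 1420331_at and -1.62 for 1420330_at, of which neither passed. Without WT replicate 1 both probe sets passed, at -1.30 for 1420330_at (limma, adjusted p = 0.0266). Both arrays numbered 1 stood apart from the other 4 on the second principal component, which held 28.0% of the variance. With these 2 left out, a setting chosen after seeing the data, 1420330_at fell by 1.01 on the log2 scale (limma, adjusted p = 0.0018). The estimate was negative for 1420330_at in all 19 alternatives tried and for 1420331_at in the 18 that held it.

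**Figure D1:**
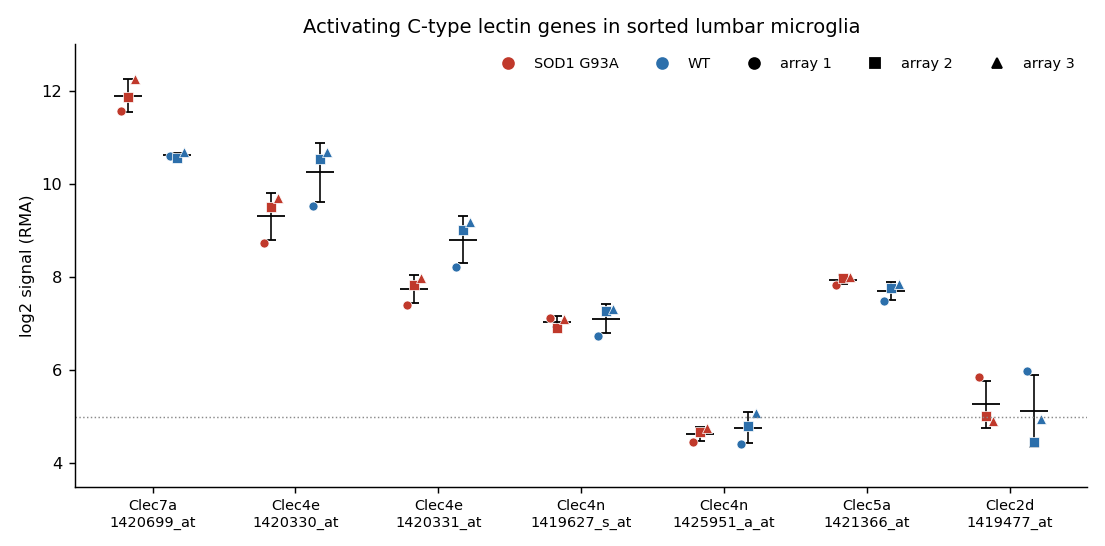
Log2 signal of the 7 probe sets of the group in each array, with SOD1 G93A arrays in red and WT arrays in blue. Marker shapes give the array number, horizontal bars the mean, whiskers the SD (n = 3 each), and the dotted line a log2 signal of 5, near background; *Clec7a* is higher and 1420331_at of *Clec4e* lower in SOD1 G93A without overlap.

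The other members did not pass the test. *Clec5a*, of the receptor MDL-1, read 7.82, 7.99 and 8.01 in SOD1 G93A arrays, against 7.49, 7.77 and 7.85 in WT arrays. The ranges touched at one array, and the log2 fold change was 0.23 (95% confidence interval -0.05 to 0.52, limma, adjusted p = 0.362). *Clec4n*, of Dectin-2, read 7.11, 6.91 and 7.10 in SOD1 G93A arrays with 1419627_s_at, against 6.74, 7.27 and 7.30 in WT arrays. Its values interleaved, with a log2 fold change of -0.07 (95% confidence interval -0.43 to 0.30, limma, adjusted p = 0.877), so that a change as large as that of *Clec4e* lay outside the interval. Its other probe set, 1425951_a_at, had signals between 4.47 and 4.76 in SOD1 G93A arrays and between 4.41 and 5.08 in WT arrays, close to background. The suffixes of both names mark probes that can match several transcripts. *Clec2d*, the NKR-P1 ligand, read 5.85, 5.02 and 4.92 in SOD1 G93A arrays, against 5.974, 4.46 and 4.95 in WT arrays. Both arrays numbered 1 were the highest of their genotype, and the log2 fold change was 0.14 with a wide interval (95% confidence interval -0.71 to 0.98, limma, adjusted p = 0.893). Leaving out 1 array turned the direction of *Clec4n* (0.02 without WT replicate 2 and 0.03 without WT replicate 3 for 1419627_s_at, and 0.02 without WT replicate 3 for 1425951_a_at). It also turned that of *Clec2d* (-0.16 without SOD1 G93A replicate 1 and -0.20 without WT replicate 2).

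Over the group, 1 of 7 probe sets was higher in SOD1 G93A arrays, where 2.71% of all probe sets were. In the other direction 1 of 7 was lower, where 1.93% of all were. The arrays of the genotypes did not overlap for 1 probe set in each direction, against 13.4% (higher) and 11.3% (lower) of all probe sets. The median log2 fold change of the 5 genes, each by its probe set of highest mean signal, was 0.14, and that of all genes was 0.02.

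On chromosome 6, *Clec7a* and *Clec2d* lie in the gene cluster of Dectin-1 and *Clec4e* and *Clec4n* in that of Dectin-2, while *Clec5a* lies on the same chromosome in neither. Of the 7 measured genes of the Dectin-1 cluster, *Clec7a* was the one that passed, and 0 were lower. *Cd69*, an early activation antigen of leukocytes, read 7.12, 7.58 and 8.11 in SOD1 G93A arrays, against 6.02, 6.75 and 6.92 in WT arrays. These groups did not overlap, but the log2 fold change of 1.04 missed the threshold (limma, adjusted p = 0.0782). It passed with both arrays numbered 1 left out (limma, adjusted p = 0.00666). Of the 6 measured genes of the Dectin-2 cluster, 1 fell, and their median log2 fold change was -0.66. The gene that fell was *Clec4a2*, of the inhibitory receptor DCIR, which read 9.64, 9.43 and 9.43 in SOD1 G93A arrays, against 10.07, 10.56 and 10.54 in WT arrays. Its log2 fold change was -0.89 (standard error 0.15, limma, adjusted p = 0.0165).

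*Clec4d*, of the receptor MCL, which pairs with Mincle, read 9.59, 9.90 and 10.24 in SOD1 G93A arrays, against 10.26, 10.78 and 10.92 in WT arrays. As for *Clec4e*, the array numbered 1 was the lowest of each genotype. The log2 fold change of *Clec4d* was -0.74 (limma, adjusted p = 0.0835) and that of *Clec4a3*, of another DCIR-like receptor, -0.58 (limma, adjusted p = 0.0719), and neither passed. With both arrays numbered 1 left out, 4 of the 6 genes were lower. The call of *Clec4a2* was lost without SOD1 G93A replicate 2 (adjusted p = 0.0737) or 3 (0.0755) and without WT replicate 2 (0.0673) or 3 (0.0752) in the limma fits, and its other probe set, with a log2 fold change of -0.16, did not pass. Over all genes, 3.53% were higher and 2.08% lower by this test. The genes of the cluster are related in sequence, and whether their probes share signal was not tested.

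**Figure D2:**
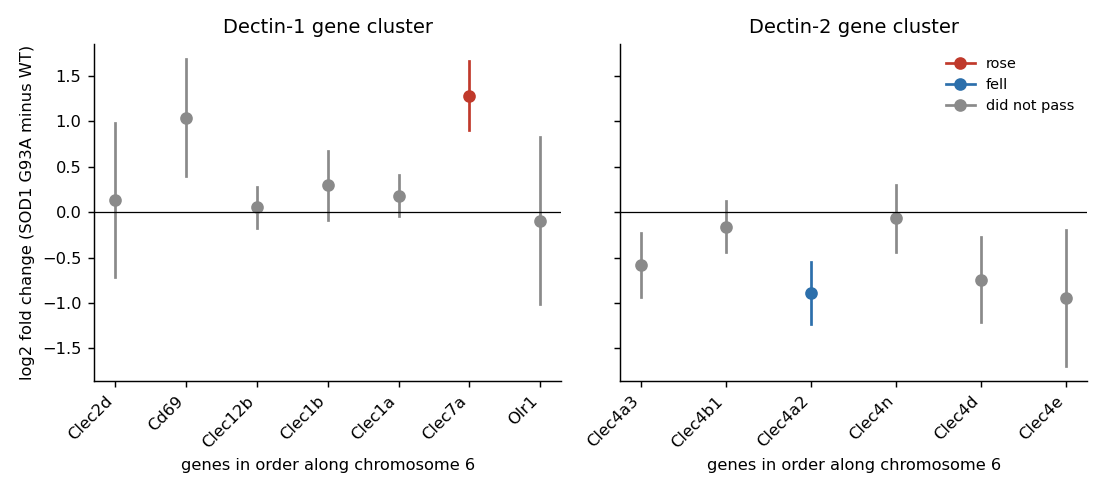
Log2 fold change (SOD1 G93A minus WT) of the measured genes of the Dectin-1 and Dectin-2 clusters, each by its probe set of highest mean signal, in their order along the chromosome. Points are estimates and lines 95% confidence intervals from limma, red where the gene rose, blue where it fell and grey where it did not pass; *Clec7a* stands at 1.28 and *Clec4e* at -0.94.

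Some markers of other CD11b-positive cells were also lower in SOD1 G93A arrays. The counts of each list stand beside shares of 3.53% higher and 2.08% lower over all genes. Of 17 measured neutrophil markers, 5 fell and 0 rose, with a median log2 fold change of -0.77. With 1 array left out, between 1 (without SOD1 G93A replicate 2 or 3 or WT replicate 2 or 3) and 10 (without WT replicate 1) of them fell, and their median lay between -1.08 and -0.51. The *Gapdh* covariate left 0 lower, with a median of -1.38. The mean log2 signal of the list lay between 9.89 and 10.51 in SOD1 G93A arrays and between 10.46 and 11.34 in WT arrays. The neutrophil genes *S100a8* and *S100a9* had mean log2 signals of 14.1 and 14.0 in SOD1 G93A arrays and of 14.5 and 14.4 in WT arrays. Neither passed (limma, adjusted p = 0.135 and 0.225), and at signals above 13 an array may be near saturation. *Csf3r* of the same list went the other way, at 0.36, and did not pass (limma, adjusted p = 0.257). Of the 17 markers, 0 had a mean below 5. Of 18 monocyte markers, 7 fell and 0 rose, with a median of -0.90, and the list's mean lay between 8.96 and 9.47 in SOD1 G93A arrays and between 9.54 and 10.22 in WT arrays. With 1 array left out, between 3 (without SOD1 G93A replicate 2 or WT replicate 2 or 3) and 10 (without WT replicate 1) fell, and 4 without SOD1 G93A replicate 3, with medians between -1.14 and -0.64, and the *Gapdh* covariate left 2. *Ccr2*, the receptor by which monocytes leave the marrow, read 7.58, 8.02 and 7.66 in SOD1 G93A arrays, against 9.08, 8.98 and 8.86 in WT arrays (log2 fold change -1.22, limma, adjusted p = 0.00391), and 2 of its 4 probe sets passed. Of 16 border macrophage markers, among them *Clec4n* and *Clec10a*, 4 fell and 2 rose, with a median of -0.24, and the list's mean lay between 7.94 and 8.16 in SOD1 G93A arrays and between 8.19 and 8.47 in WT arrays. The 2 that rose were *Colec12* and *Ms4a7*. Of this list 0 fell without SOD1 G93A replicate 3 or WT replicate 2, 1 without WT replicate 3, 2 without SOD1 G93A replicate 2 and 5 without SOD1 G93A replicate 1 or WT replicate 1, and 0 passed in either direction with the *Gapdh* covariate. Of 15 microglia markers 2 rose and 1 fell, with a median of -0.03. Their mean log2 signal lay between 11.92 and 12.11 in SOD1 G93A arrays and between 11.75 and 11.95 in WT arrays, and 0 of them had a mean below 5. The part of such cells in the *Clec4e* values was not tested, nor was whether the neutrophil and monocyte lists tell these cells apart.

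The genes whose signals followed those of *Clec4e* most closely were *Trem3*, *Ifitm6* and *Hp*. Likeness was measured as the root mean square difference, over the 6 arrays, between signals centred on each gene's own mean, among 25079 probe sets with 1 gene symbol and a mean signal of at least 5. The differences were 0.073, 0.0821 and 0.0848 on the log2 scale, where *Clec4e* itself spanned 1.96. *Trem3* is a myeloid receptor, *Ifitm6* and *Hp* stand in the list of monocyte markers, and their log2 fold changes of -0.88, -0.98 and -0.83 did not pass either (limma, adjusted p = 0.225, 0.133 and 0.177). For *Clec7a* the closest genes were *Rtcb* (0.0835), of the RNA ligase of tRNA splicing, *Sqstm1* (0.0953), of the autophagy receptor p62, and *Usp18* (0.0981), an interferon-induced protease that removes ISG15. The *Clec7a* signal spanned 1.7, and these genes had log2 fold changes of 1.33, 1.19 and 1.32 (limma, adjusted p = 0.00553, 0.00543 and 0.00852).

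**Figure D3:**
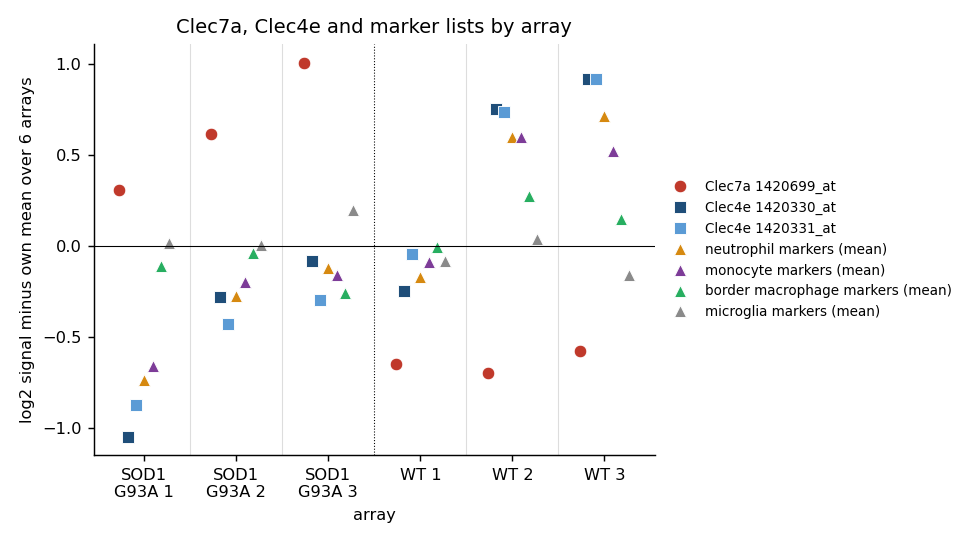
Log2 signal of *Clec7a*, of both *Clec4e* probe sets and of 4 marker lists in each array, minus the mean of the same item over the 6 arrays. Circles and squares are single probe sets and triangles the mean of a list; *Clec4e* and the neutrophil and monocyte lists are lowest in SOD1 G93A array 1 and highest in WT arrays 2 and 3, whereas *Clec7a* is highest in the SOD1 G93A arrays.

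On the side of ligands and partners, the genes of NKR-P1 receptors, which bind Clec2d and related proteins in mouse, differed widely. *Klrb1a* read 6.60, 6.57 and 6.45 in SOD1 G93A arrays, against 4.34, 4.43 and 4.197 in WT arrays. All WT signals lay below 5, close to background, so the rise is given as at least 2.9-fold, the SOD1 G93A mean set against that level (limma, adjusted p = 8.39e-05). *Klrb1b*, of the receptor known to bind Clec2d, read 7.57, 7.43 and 7.43 in SOD1 G93A arrays, against 6.17, 5.47 and 5.38 in WT arrays. The groups were far apart, with a log2 fold change of 1.81 (standard error 0.20, limma, adjusted p = 0.00311). Of the 5 probe sets of *Klrb1b*, 3 passed and the other 2, with signals below 5, did not. The *Klrb1* genes are close relatives, so signal may be shared between their probes, while *Klrb1f*, at -0.89, did not pass (limma, adjusted p = 0.0835).

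*Tlr2*, whose product cooperates with Dectin-1 in binding yeast cell walls, read 11.68, 12.02 and 12.12 in SOD1 G93A arrays, against 10.03, 10.61 and 10.50 in WT arrays. All SOD1 G93A arrays were higher, with a log2 fold change of 1.56 (standard error 0.18, limma, adjusted p = 0.00391). These 3 genes were the ones that rose among 12 measured genes listed as ligands and partners, 0 fell, and the median was 0.21. Among all genes, 3.53% rose and 2.08% fell. The list counts *Sap130*, at 0.07, by its symbol alone. This gene is not taken here as that of the ribonucleoprotein bound by Mincle, and no statement about a ligand of Mincle rests on it.

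Of 22 measured genes of proximal signalling, 4 rose and 0 fell, with a median log2 fold change of 0.0056. Among all genes, 3.53% rose and 2.08% fell. *Fcer1g*, of the gamma chain that serves Mincle and Dectin-2, read 11.19, 11.08 and 11.17 in SOD1 G93A arrays, against 10.26, 10.62 and 10.55 in WT arrays. Its log2 fold change was 0.67 (standard error 0.12, limma, adjusted p = 0.0216). *Tyrobp*, of the adaptor DAP12 that serves MDL-1, read 13.92, 13.84 and 13.90 in SOD1 G93A arrays, against 13.28, 13.39 and 13.43 in WT arrays. Its log2 fold change was 0.52 (limma, adjusted p = 0.0272), at signals above 13 where an array may be near saturation. The adaptor gene *Lat2* rose by 0.60 (limma, adjusted p = 0.0362) and the kinase gene *Fyn* by 0.48 (limma, adjusted p = 0.0441), while another probe set of *Fyn* and 2 of *Lat2* did not pass. *Syk*, of the kinase on which all these receptors converge, read 9.67, 9.88 and 9.86 in SOD1 G93A arrays, against 9.61, 10.21 and 10.18 in WT arrays. The genotypes overlapped, with a log2 fold change of -0.20 (95% confidence interval -0.58 to 0.18, limma, adjusted p = 0.583). *Plcg2*, of the phospholipase downstream of SYK, had 0.11 (95% confidence interval -0.12 to 0.34, limma, adjusted p = 0.633). The call of *Fcer1g* was lost without SOD1 G93A replicates 2 or 3 or WT replicate 3 (adjusted p = 0.0702, 0.0879 and 0.0706). The calls of *Tyrobp* and *Lat2* were lost without any 1 of the 6 arrays (adjusted p between 0.0539 and 0.1002 and between 0.0502 and 0.129), and that of *Fyn* without any 1 array but WT replicate 1 (adjusted p up to 0.154). *Tyrobp* and *Fyn* were also lost with quantile normalization (limma, adjusted p = 0.0501 and 0.0518), *Fyn* with trend and robust settings (0.0593), and *Tyrobp* with both arrays numbered 1 left out (0.0528).

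In the arm of CARD9 and NF-kappaB, 1 of 23 measured genes rose and 1 fell, and the median was 0.07. Among all genes, 3.53% rose and 2.08% fell, so these counts were near the share of all genes. *Bcl10*, of the direct partner of CARD9, had a log2 fold change of 0.16 (95% confidence interval -0.21 to 0.52, limma, adjusted p = 0.662). Its other probe sets lay between -0.14 and 0.23, and none passed. *Malt1*, of the protease in the same complex, had 0.12 (95% confidence interval -0.48 to 0.71, limma, adjusted p = 0.866). Its other probe sets, at -0.25 and 0.35, did not pass either. *Relb*, an NF-kappaB subunit, rose by 0.69 (standard error 0.14, limma, adjusted p = 0.0277). *Nfatc2*, a transcription factor driven by calcium signals, changed by -0.53 on the log2 scale (standard error 0.11, limma, adjusted p = 0.0335), and its other 5 probe sets did not pass. Both calls were lost when SOD1 G93A replicate 2 or 3 or WT replicate 2 or 3 was left out, and that of *Nfatc2* also without SOD1 G93A replicate 1 (adjusted p up to 0.0956 for *Relb* and 0.126 for *Nfatc2*).

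Of 18 genes known as outputs of Dectin-1 and Mincle signalling, and of many other stimuli, 4 rose and 0 fell, with a median of 0.27. Among all genes, 3.53% rose and 2.08% fell. The chemokine gene *Ccl4* rose by 1.35 (standard error 0.16, limma, adjusted p = 0.00442), *Tnf*, of tumour necrosis factor, by 1.26 (standard error 0.14, limma, adjusted p = 0.00356) and *Ccl3* by 1.19 (standard error 0.11, limma, adjusted p = 0.00152). *Il12b* passed (limma, adjusted p = 0.0258) with both means below 5 (4.97 in SOD1 G93A and 4.35 in WT arrays), so no fold is given, its other probe set did not pass (limma, adjusted p = 0.0665), and its call was lost without SOD1 G93A replicates 2 or 3 or WT replicates 2 or 3 (adjusted p up to 0.0907). *Ccl3*, *Ccl4* and *Tnf* did not overlap between the genotypes. With the *Gapdh* covariate the calls of *Ccl3*, *Klrb1a* and *Klrb1b* were kept, and those of *Ccl4*, *Tnf*, *Tlr2*, *Il12b*, *Relb*, *Nfatc2* and the 4 genes of proximal signalling were lost (limma, adjusted p from 0.0668 for *Tnf* to 0.331 for *Lat2*).

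Among 31 further measured C-type lectin receptor genes of myeloid cells, which include other genes of both clusters, 2 rose and 2 fell, with a median of -0.0034. The shares over all genes were 3.53% higher and 2.08% lower. *Cd72*, of an inhibitory receptor best known from B cells, read 9.50, 9.93 and 10.22 in SOD1 G93A arrays, against 8.04, 7.36 and 7.46 in WT arrays. This was a 4.81-fold rise (log2 fold change 2.27, limma, adjusted p = 0.00214). *Colec12*, of a scavenger receptor with a collagen stalk, rose at least 2.0-fold on the same reckoning, since its WT signals lay between 4.74 and 4.87 (limma, adjusted p = 0.00414). Besides *Clec4a2*, *Clec10a*, of a galactose-binding macrophage lectin, fell by 0.83 (limma, adjusted p = 0.0232), a call lost without SOD1 G93A replicates 2 or 3 or WT replicates 2 or 3 (adjusted p = 0.0693, 0.0967, 0.086 and 0.0957). Its close relative *Mgl2* read 7.06, 6.05 and 5.25 in SOD1 G93A arrays, against 7.25, 7.36 and 7.26 in WT arrays, and did not pass (limma, adjusted p = 0.114). The *Gapdh* covariate ended the calls of *Cd72* (limma, adjusted p = 0.0527), *Colec12* (0.0807), *Clec10a* (0.19) and *Clec4a2* (0.163). The log2 fold changes were then 1.92 for *Cd72*, -0.78 for *Clec10a* and -0.84 for *Clec4a2*.

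**Figure D4:**
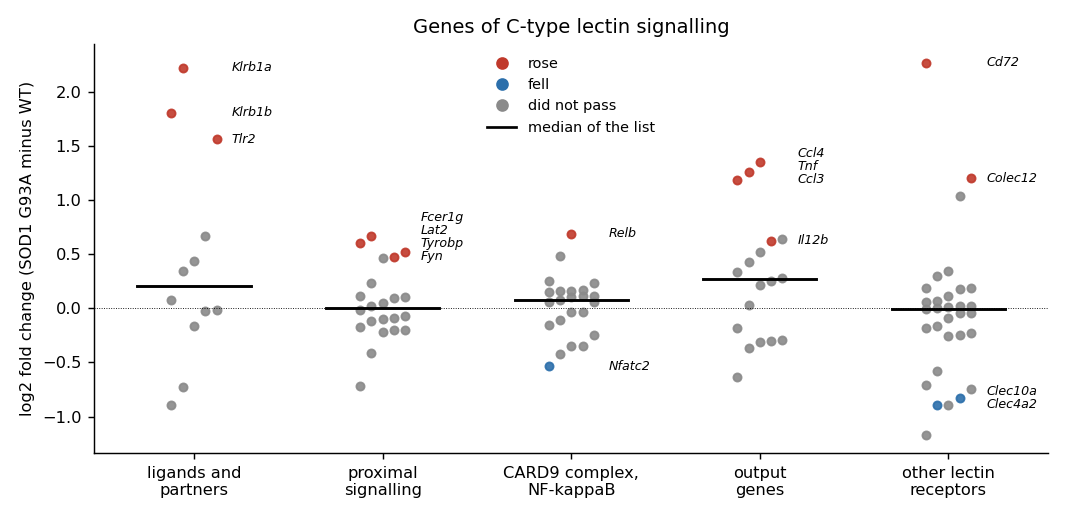
Log2 fold change (SOD1 G93A minus WT) of each measured gene of 5 lists around C-type lectin signalling, each by its probe set of highest mean signal. Points are genes, red where they rose, blue where they fell and grey where they did not pass limma at an adjusted p under 0.05, with names for those that passed, and black bars are medians, from -0.0034 for the other lectin receptors to 0.27 for output genes.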

How the data were processed

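RNA of sorted lumbar microglia had been hybridised to Affymetrix mouse expression arrays, 3 per genotype. The table holds the authors' log2 values, 1 per probe set and array, which the submitters' processing notes trace to RMA in Partek without a version. The methods of the study name MAS 5.0, whose signals and detection calls were not used here.

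After removal of 64 control probe sets, genotype was fitted as the only term for the other 45037 with limma 3.58.1 (lmFit, eBayes) in R 4.3.3. Benjamini-Hochberg adjustment ran over this whole set, and an adjusted p under 0.05 was the threshold. Lists were counted over genes, each by its probe set of highest mean signal. The text names every member, genes of each list with large changes, fixed signalling genes, and the 3 genes most like a member. Members and lists were chosen with earlier results of these data known. The fit was tested on simulated data with independent noise, which did not model effects shared by a whole array. Precision is limited by the number of arrays. Alternatives were other tests, thresholds, filters, normalizations and weights, a replicate block, a *Gapdh* covariate, and arrays left out. Python 3.11.15, pandas 2.3.3 and matplotlib 3.10.9 were used for promoters and figures.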

Additional observations from a re-analysis of the deposited data

How the results depend on the processing

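The rise of *Clec7a* was called in 17 of 19 alternatives. For *Clec4e*, 1420331_at kept its call in 9 of 18. The stronger probe set, 1420330_at, was not called in the main fit and stayed uncalled in 15 of 19. After Benjamini-Hochberg adjustment, the methods' t-test gave 0 member probe sets in either direction and 0 and 0 of all probe sets. With the *Gapdh* covariate the counts were 0 higher and 0 lower among members and 88 higher and 41 lower of all. Among member probe sets, 0 were lower with eBayes trend and robust and with arrays centred on their median. With 1 probe set per gene 0 were lower too (507 lower of all), but that setting left out 1420331_at, the probe set called lower in the main fit. At the fold threshold of the methods with limma's unadjusted p under 0.05, 2 were lower, both of *Clec4e* (531 higher and 550 lower of all). At the same thresholds with the methods' t-test, 1 member probe set was higher and 1 lower, and 469 were higher and 326 lower of all. Array weights gave 1968 higher and 1581 lower of all. With both arrays numbered 1 left out, added after seeing the data, 2 member probe sets were lower, both of *Clec4e*, and 1835 were higher and 1961 lower of all. When each array was left out in turn, the member probe sets lower ranged from 0 to 2, all higher from 333 to 1230 and all lower from 146 to 1178.

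With a replicate block, 2 member probe sets were lower, both of *Clec4e*, and 2246 were higher and 2273 lower of all. Deviations of same-numbered arrays correlated by 0.444, 0.24 and 0.0288 for numbers 1, 2 and 3. The largest signed correlation between differently numbered arrays was 0.4, and the size of negative ones was not measured. The numbers were not taken to pair the arrays.

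*Bcl10* changed direction with the *Gapdh* covariate (-0.077), as did *Malt1* (-0.56). With each array left out in turn, the log2 fold changes of results that changed direction ranged from -0.25 to 0.031 and from -0.32 to 0.021 for the stronger and weaker probe sets of *Clec4n*, from -0.20 to 0.56 for *Clec2d*, from -0.015 to 0.27 for *Bcl10* and from -0.12 to 0.41 for *Malt1*. Of the other settings for single member probe sets, 108 kept the direction and side of the threshold, 11 lost a call and 4 gained one.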

Other observations

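Markers of dendritic cells, natural killer cells and lymphocytes, which also use C-type lectins, were counted too. Over all genes, 3.53% were higher and 2.08% lower. Of 10 dendritic cell markers 1 fell and 0 rose (median log2 fold change 0.02, list mean between 6.81 and 6.88 in SOD1 G93A arrays and between 6.94 and 7.05 in WT arrays). The one that fell, *Fscn1*, lost its call without SOD1 G93A replicate 1, 2 or 3, without WT replicate 2 and with the *Gapdh* covariate, and 2 fell without WT replicate 1. The other probe sets of *Fscn1*, at 0.09, 0.15 and -0.0035, did not pass. The called one had means of 12.5 in SOD1 G93A and 13.1 in WT arrays, far above the list means. Whether dendritic cells carried this signal was not tested. Of 11 natural killer cell markers 1 rose and 1 fell (median -0.07, list mean between 5.41 and 5.49 in SOD1 G93A arrays and between 5.43 and 5.55 in WT arrays). The one that rose was *Ccl5*, a chemokine gene, with a log2 fold change of 2.34 (limma, adjusted p = 0.00186), and the one that fell was *Klrd1*, of the receptor CD94, with -1.79 (limma, adjusted p = 0.0204). The call of *Klrd1* was lost without SOD1 G93A replicate 2 or 3, without WT replicate 3 and with the *Gapdh* covariate. Of 10 T and B lymphocyte markers 0 passed (median 0.02).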
